A study of Mus musculus with 4 samples.

Results

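The inflammatory chemokine genes Ccl1, Ccl3, Ccl4, Ccl5 and Ccl9 and the gene Xcl1 were described in cloned mouse Th1 cells, the CD4 helper T cells that produce interferon gamma. The members were the probe sets assigned in the platform annotation to 1 of these 6 symbols alone, which gave 7 probe sets among 12488 and 6 genes among 8251 with such a probe set. Ccl1 had 2 probe sets and each other gene had 1. The genes were picked from the difference between anergic and control cells itself, so that difference is given below as a description and was not tested. The anergic group holds 2 arrays (anergic arrays 1 and 2) of the Th1 clone after exposure to plate-bound anti-CD3, an antibody against the CD3 chains that signal for the T cell receptor. The control group holds 2 arrays (control arrays 1 and 2) of the same kind of clone in the normal, quiescent state. The labels name no strain, time or age, and separate cultures are not stated for any array, so the p-values below measure a spread between arrays that may be technical. All results refer to a cloned T cell line and to steady-state RNA.

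Chemokines are small secreted proteins that bind G protein-coupled receptors on leukocytes and direct their migration. Activated Th1 cells, cytotoxic T cells and NK cells are known sources of Ccl3, Ccl4, Ccl5 and Xcl1, and macrophages also make Ccl3, Ccl4 and Ccl9. Ccl3, Ccl5 and Ccl9 bind the receptor Ccr1, Ccl1 binds Ccr8, and Xcl1, which lacks a pair of the cysteines shared by the other chemokines, binds Xcr1 on cross-presenting dendritic cells. Anergy is a lasting unresponsiveness of T cells after a receptor signal without full costimulation.

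Because these genes differed together between the groups, the 250 bases before the annotated start are shown for the 4 members with an entry in the RefSeq promoter table (build GRCm38.p6); Ccl4 and Ccl5 are not shown. Capitals mark matches, on either strand, to the motifs searched: the NFAT core TGGAAA, AP-1 TGANTCA, the cyclic AMP element TGACGTCA, the T-bet motif TCACAC, the RUNX motif TGTGGT, the TATA box TATAAA and the NF-kB consensus. The windows, all on the minus strand, were chr11:82179813-82180062 for Ccl1, chr11:83649379-83649628 for Ccl3, chr11:83578637-83578886 for Ccl9 and chr1:164935523-164935772 for Xcl1.
Ccl1: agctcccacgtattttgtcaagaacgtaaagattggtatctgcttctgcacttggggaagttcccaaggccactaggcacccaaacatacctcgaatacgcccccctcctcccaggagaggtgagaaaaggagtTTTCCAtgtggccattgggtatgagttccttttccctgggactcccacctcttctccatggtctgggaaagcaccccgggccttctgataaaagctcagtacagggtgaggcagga
Ccl3: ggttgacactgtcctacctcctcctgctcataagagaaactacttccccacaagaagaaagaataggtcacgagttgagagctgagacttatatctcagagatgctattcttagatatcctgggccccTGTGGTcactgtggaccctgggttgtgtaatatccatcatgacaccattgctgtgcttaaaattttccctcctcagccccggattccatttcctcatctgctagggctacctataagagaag
Ccl9: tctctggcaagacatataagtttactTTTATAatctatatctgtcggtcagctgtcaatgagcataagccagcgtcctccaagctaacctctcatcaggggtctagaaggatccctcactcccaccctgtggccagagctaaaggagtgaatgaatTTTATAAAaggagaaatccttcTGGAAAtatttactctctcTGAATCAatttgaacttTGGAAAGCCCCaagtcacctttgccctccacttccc
Xcl1: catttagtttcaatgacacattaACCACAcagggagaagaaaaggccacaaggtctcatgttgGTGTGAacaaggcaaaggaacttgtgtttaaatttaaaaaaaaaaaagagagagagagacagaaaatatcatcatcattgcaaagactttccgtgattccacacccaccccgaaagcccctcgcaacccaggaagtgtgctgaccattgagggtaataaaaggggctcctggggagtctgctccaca

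The Ccl9 window held the most matches of the 4. It had TATAAA at 3 places, the NFAT core at 72 to 67 and at 36 to 31 bases before the start, TGAATCA at 53 to 47 bases, and an NF-kB consensus match at 35 to 26 bases that overlaps the second NFAT core. The Ccl1 window held 1 NFAT core, at 116 to 111 bases. In the Ccl3 window 1 RUNX motif was found, at 122 to 117 bases. The Xcl1 window held a RUNX motif at 227 to 222 bases and a T-bet motif at 187 to 182 bases. Over 32851 promoter windows of the same length in the table, 18.6% held the NFAT core, 14% the RUNX motif, 12.4% TATAAA, 12.3% the T-bet motif, 6.75% the AP-1 motif and 3.9% the NF-kB consensus. The cyclic AMP element was in 1.55% of all windows and in 0 of these 4. These are matches of letters and were not tested as binding sites.

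On the arrays, intensities are on a linear scale in arbitrary units, and a level is compared between arrays for 1 probe set, never between probe sets. All 7 probe sets passed the filter on low values, which is a cut at the 40th percentile of the mean log2 value over all 4 arrays. On the control arrays alone, the mean of 3 of the 7 was below that cut (Ccl9, Ccl4 and the dimmer probe set of Ccl1), so these passed through the anergic arrays where they are high. For all 7, both anergic arrays were above both control arrays. This separation held for 17.3% of the 5583 genes tested, and the opposite one for 24%. The log2 differences (anergic minus control, of intensity plus a pseudocount of 29.15) had a median of 2.90 over the 6 genes, where the median of all genes was -0.085. Ranked by this difference among the 5583 genes, Ccl9 was number 1, Ccl1 number 8, Ccl4 number 16, Ccl3 number 19, Xcl1 number 47 and Ccl5 number 94. By limma with Benjamini-Hochberg adjustment over all genes at a threshold of 0.05, 74 genes (1.33%) were called higher and 47 (0.842%) lower, or 47 and 13 when each array was centred on its median.

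**Figure D1:**
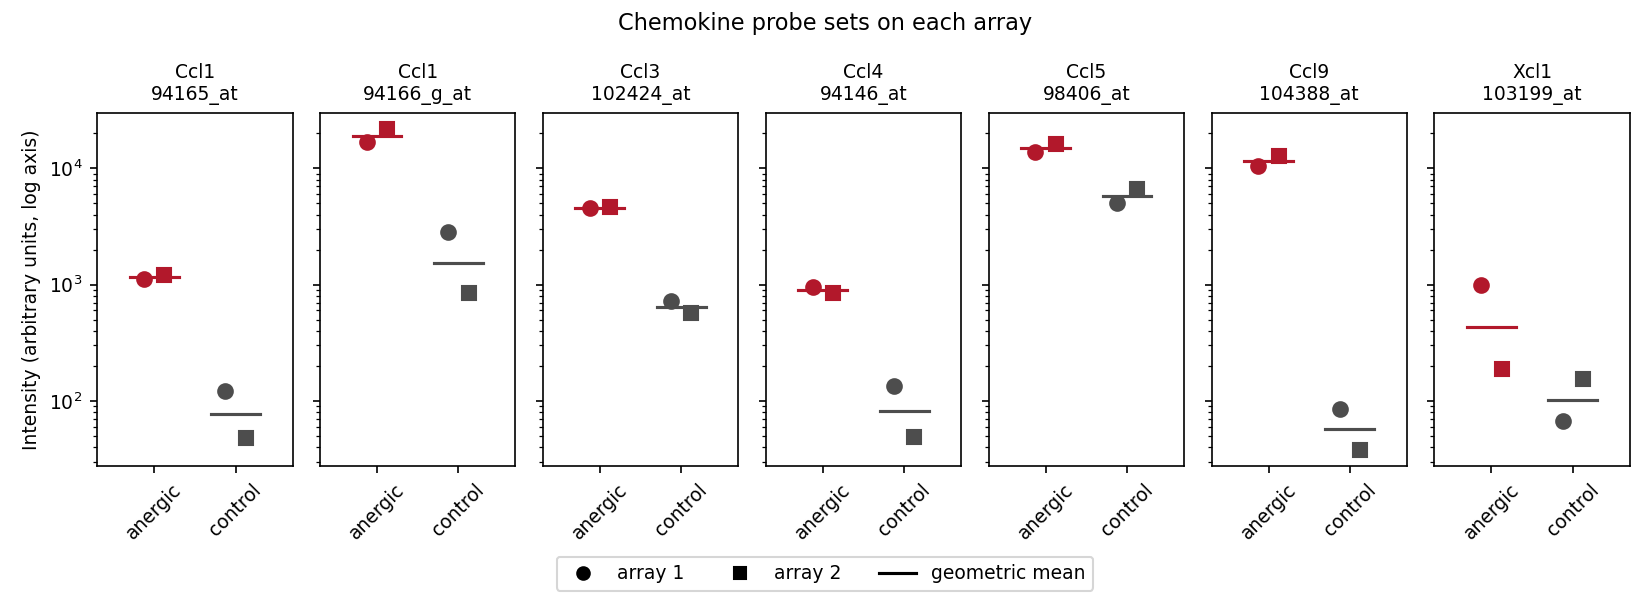
Intensity (arbitrary units, log axis) of the 7 chemokine probe sets on each array, with anergic arrays in red and control arrays in grey, array 1 as circles, array 2 as squares and the geometric mean as a line. Anergic arrays lie above control arrays in every panel, and the gap is narrowest for Xcl1, where anergic array 2 was at 189 and control array 2 at 154.2. Levels are not comparable between panels.

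Ccl9, which encodes MIP-1 gamma, a mouse chemokine of macrophages and other myeloid cells, differed most. Its intensity was 10375.8 and 12664.2 on anergic arrays 1 and 2, against 85.8 and 37.9 on control arrays 1 and 2. The groups were far apart. Both control values lay below the 40th percentile of their array, at percentiles 39.6 and 20.6, and whether they are above background is not known here, so no fold is given. The means were 11520 ± 1618 in anergic and 61.9 ± 33.9 in control cells (SD, n = 2 each). The log2 difference was 7.03 ± 0.32 (SE). Control values of this size are near the pseudocount, so the difference was 5.71 with the pseudocount at the array median (161.15) and 7.62 with a pseudocount of 1. With a pseudocount of 1 the gene Crtam was at 7.74, above Ccl9, so the first rank of Ccl9 depends on that choice.

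Ccl1, also known as TCA-3, is a chemokine of activated T cells. At its brighter probe set it was at 16726.9 and 21741.8 on the anergic arrays, against 2836.5 and 837.4 on the control arrays. At the other probe set it was at 1121.6 and 1202.4 in anergic cells, against 121.5 and 47.8 in control cells. In both probe sets control array 2 was the lowest of the 4 arrays and control array 1 lay between it and the anergic arrays. The probe sets gave log2 differences of 3.60 ± 0.48 and 3.47 ± 0.39 (SE, n = 2 each). The gap between the control arrays at the brighter probe set was 1.73 on the log2 scale, larger than that of 98.7% of the genes tested. Without control array 2 the log2 difference of this probe set was 2.74, and without control array 1 it was 4.46.

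Ccl3 and Ccl4 encode MIP-1 alpha and MIP-1 beta, inflammatory chemokines whose genes lie next to each other. Ccl3 was at 4511.1 and 4603.7 on the anergic arrays, against 717.4 and 573.3 on the control arrays. Ccl4 was at 948.4 and 840.2 in anergic cells, against 134.7 and 49 in control cells. The lowest anergic value was 6.29 times the highest control value for Ccl3 and 6.24 times for Ccl4, so neither gene had overlapping groups. The control values lay at percentiles 78.3 and 73.4 of their arrays for Ccl3, and at 48.3 and 24.6 for Ccl4. Whether those of Ccl4 are above background is not known here, so the 2 ratios are not alike. The log2 difference was 2.77 ± 0.24 for Ccl3 and 3.03 ± 0.41 for Ccl4 (SE, n = 2 each). The anergic arrays were close to each other for both genes, at gaps of 0.029 and 0.169 on the log2 scale, where the median gene had 0.325. Between the control arrays Ccl4 differed by 1.07 and Ccl3 by 0.309, against a median of 0.366. Ccl4 was at 2.08 with the pseudocount at the array median, and Ccl3 at 2.55.

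Control array 2 was thus the lower control array for Ccl1, Ccl3, Ccl4 and Ccl9. The same array was the brightest of the 4 in the 3' control probe sets for Gapdh and Actb. Gapdh was at 13520 and 15107 on the anergic arrays, against 15842 and 24098 on control arrays 1 and 2, and Actb at 15438 and 19857, against 18045 and 27573. The part of this array in the chemokine differences was not tested beyond leaving it out: without it they were 2.74 for Ccl1, 2.62 for Ccl3, 2.49 for Ccl4 and 6.64 for Ccl9.

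Ccl5, known as RANTES and made late after T cell activation, differed least in log2 terms. It was at 13688.5 and 16081.3 on the anergic arrays, against 5065.6 and 6611.8 on the control arrays. The higher array was 1.17 times the lower in anergic cells and 1.31 times in control cells. On the log2 scale these gaps were 0.232 and 0.382, where the median gene had 0.325 and 0.366. The lower anergic array was 2.07 times the higher control array, and the log2 difference was 1.35 ± 0.23 (SE, n = 2 each). Quantile normalization gave 1.60.

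Xcl1, lymphotactin, was the member whose arrays differed most within a group. It was at 980.7 and 189 on anergic arrays 1 and 2, against 67.5 and 154.2 on control arrays 1 and 2. The groups did not overlap, but anergic array 2 exceeded control array 2 only 1.23 times, and anergic array 1 stood alone. The gap between the anergic arrays was 2.21 on the log2 scale, larger than that of 99.8% of genes. The log2 difference was 1.82 ± 0.68 (SE, n = 2 each). It was 0.71 without anergic array 1, 2.92 without anergic array 2, 1.36 without control array 1 and 2.28 without control array 2.

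**Figure D2:**
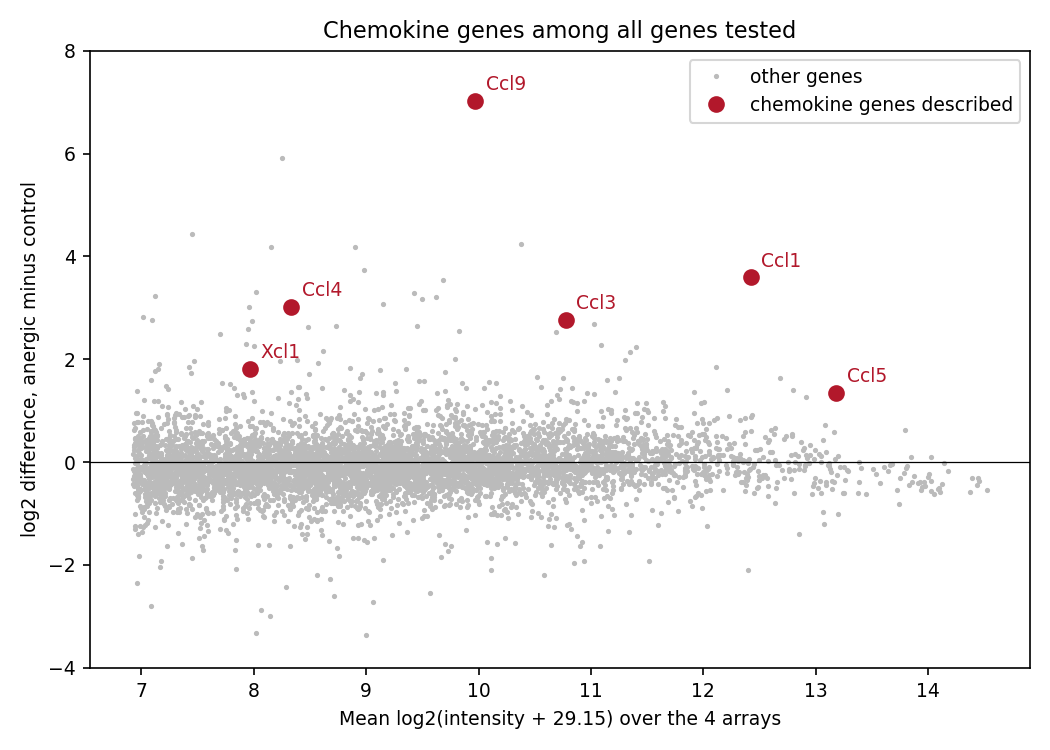
Log2 difference (anergic minus control) against the mean log2 value over the 4 arrays, for the 5583 genes tested in grey and the 6 chemokine genes in red. Ccl9 lies at 7.03, above all other genes at the pseudocount of 29.15, and Ccl5 at 1.35 has the smallest difference of the 6.

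The profiles of the members over the 4 arrays, each centred on its own mean, were compared by Euclidean distance on the log2 scale. Ccl3 and Ccl4 were the closest pair, at 0.609, followed by Ccl1 and Ccl4 at 0.833. Ccl9 lay at 3.50 or more from each of the others. Xcl1 was at 1.83 from Ccl5 and at 2.05 to 5.64 from the rest. Among all other genes tested, the adenylate kinase gene Ak1 (0.22) and the membrane semaphorin gene Sema7a (0.416) were nearest to Ccl4, and the same genes were nearest to Ccl1 (0.76 for Ak1 and 0.603 for Sema7a). The log2 difference of Sema7a was 3.22 at its brightest probe set, used here, and 1.92 with the mean of its probe sets. Ak1 was at 1552.8 and 1688.6 on the anergic arrays, against 244.3 and 109.3 on the control arrays, so it shared the lower second control array. The aminoacylase gene Acy3 (0.256) and Cyth3 (0.28), an exchange factor gene for ARF GTPases, were nearest to Ccl3. Acy3 was at 336.3 and 294.6 in anergic cells, against 19.6 and 18.9 in control cells. These control values lay below the pseudocount of 29.15, so its nearness to Ccl3 depends on that choice. The log2 differences were 2.83 for Acy3, 2.62 for Cyth3 and 2.77 for Ccl3. Raising the pseudocount to 161.15 changed them to 1.40, 1.87 and 2.55. Ormdl1, a regulator of sphingolipid synthesis, lay at 0.0662 from Ccl5 and the peroxisomal membrane gene Pxmp2 at 0.156. No gene came as near to Ccl9, whose nearest were the receptor gene Crtam at 1.24 and Pdzk1ip1 at 2.91. Crtam was at 11.8 and 8.4 on the control arrays, below the pseudocount, so its distance from Ccl9 also depends on that choice. Its log2 difference was 3.87 with a pseudocount of 161.15 and 7.74 with a pseudocount of 1, against 5.71 and 7.62 for Ccl9. The nearest to Xcl1 were the transcription factor gene Myb (0.925) and 1810009J06Rik (1.18). Myb was at 1403 and 497.9 in anergic cells, against 300 and 321.9 in control cells, and was likewise highest on anergic array 1. With 4 arrays in 2 groups, likeness rests mainly on the group difference.

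Ccl1, Ccl3, Ccl4, Ccl5 and Ccl9 lie on mouse chromosome 11, and their neighbours there were read in order from the RefSeq annotation. From Ccl2 to Heatr6 it lists 40 protein-coding genes, of which 21 were measured. The chemokine genes on the other side of Ccl1, Ccl2, Ccl7, Ccl11, Ccl12 and Ccl8, and Ccl6, which lies between Ccl9 and Ccl3, did not pass the filter. These 6 genes were between 4.1 and 73.1 on the anergic arrays, and between 5 and 77.6 on the control arrays. Ccl6 was at 23.8 and 73.1 in anergic cells, against 77.6 and 47 in control cells, so the groups overlapped between neighbours that differed by 7.03 and 2.77. Of 8 other genes of the stretch that were tested, 1 rose and 0 fell in limma, where 1.33% of all genes rose. That gene, Slfn2, is 1 of 8 Schlafen genes among the 25 genes between Ccl1 and Ccl5, and it is named here after its values were seen. It was at 1270.9 and 3543.2 on the anergic arrays, against 126.3 and 281 on the control arrays (log2 difference 3.29 ± 0.48, SE, adjusted p = 0.00695, n = 2 each). The Schlafen genes Slfn1 (-0.26, adjusted p = 0.91) and Slfn4 (-0.23, adjusted p = 0.928) did not pass. Next to Xcl1 on chromosome 1, Dpt was at 35.6 and 13.4 in anergic cells, against 19.3 and 65.4 in control cells.

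**Figure D3:**
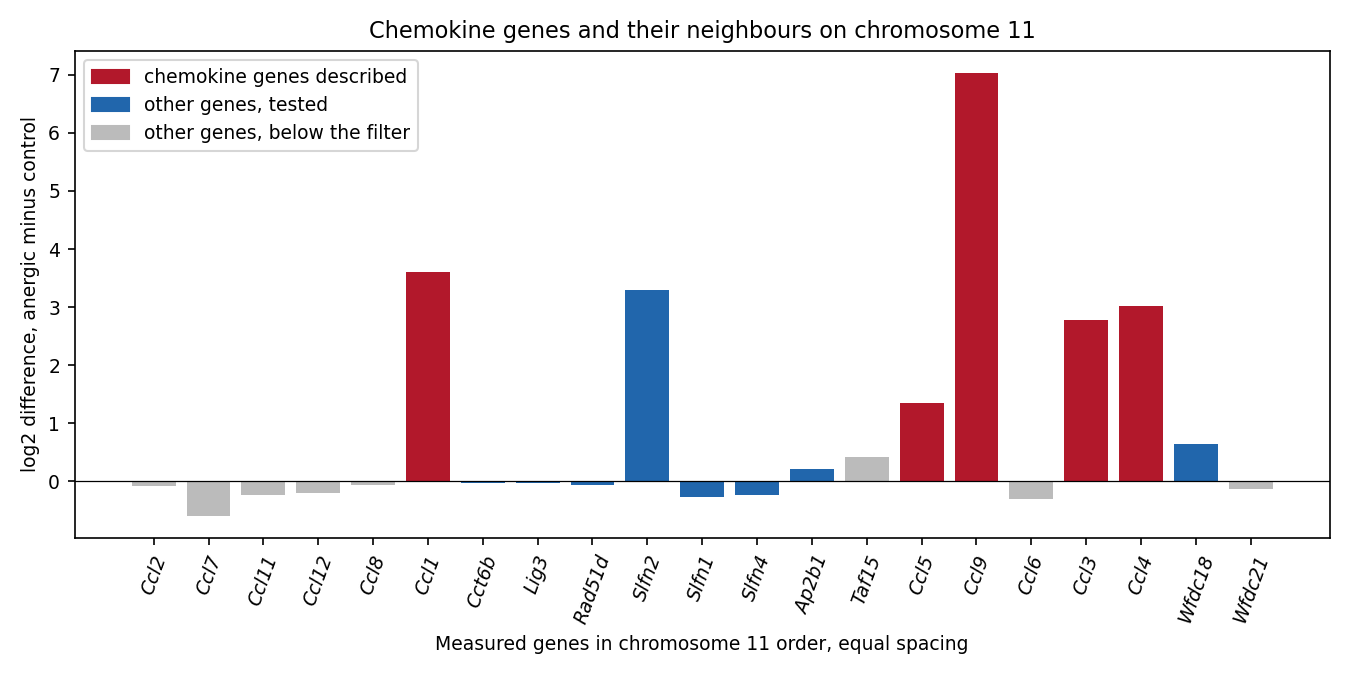
Log2 difference (anergic minus control) of the measured genes from Ccl2 to Wfdc21, in their order on chromosome 11 and at equal spacing. Red bars are the 5 chemokine genes described, blue bars other genes tested and grey bars genes below the filter; Slfn2 at 3.29 is the only blue bar past the threshold.

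Other chemokine genes mostly lay below the filter on low values in this clone. Of 19 further chemokine ligand genes on the array, 16 did not pass the filter, with values from 2.5 to 75.4 on the anergic and from 4.4 to 103.8 on the control arrays. The 3 tested were Ccl22, Cxcl1 and Cx3cl1, and 0 passed in limma, where 1.33% of all genes rose and 0.842% fell. Of these 3, 0 had an unadjusted p under 0.05, against 709 of the 5583 genes tested. Ccl22, a ligand of Ccr4, was at 2357.5 and 1190.5 in anergic cells, against 1764.9 and 837.2 in control cells (log2 difference 0.45 ± 0.40, SE, adjusted p = 0.752, n = 2 each). Those groups overlapped, with arrays numbered 1 above arrays numbered 2. The neutrophil chemokine gene Cxcl1 was at -0.89 (adjusted p = 0.552) and Cx3cl1, encoding fractalkine, at -0.98 (adjusted p = 0.554).

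No chemokine receptor gene rose in limma. Of 9 such genes tested, Cxcr3 fell and 8 did not pass, where 1.33% of all genes rose and 0.842% fell. Their median log2 difference was -0.39. An unadjusted p under 0.05 was found for 2 of the 9, Cxcr3 and Ccr2, against 709 of the 5583 genes tested. Ccr1 was at 64.9 and 93.7 on the anergic arrays, against 62.5 and 60 on the control arrays, and did not pass the filter. Ccr8 did not pass it either, at 47.9 and 65, against 138.6 and 43.8. Xcr1 was at 70.3 and 214.5 in anergic cells, against 194.2 and 221.5 in control cells (log2 difference -0.60, adjusted p = 0.719). Cxcr3, the receptor of interferon-induced chemokines on Th1 cells, was at 218.8 and 336.6, against 835.3 and 867.1, and fell (log2 difference -1.55 ± 0.31, SE, adjusted p = 0.0332). Its call was lost without anergic array 1 (-1.27, adjusted p = 0.271). Ccr2, the receptor of Ccl2, was at 9528.8 and 12946.6 in anergic cells, against 4997.9 and 8958.5 in control cells (0.73 ± 0.30, SE, adjusted p = 0.342). The atypical receptor gene Ccrl2 was at 0.62 (adjusted p = 0.613).

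Cytokine genes of T cells and transcription factor genes that act on cytokine and chemokine promoters changed in part. Of 10 effector cytokines tested, Tgfb1 rose and Ltb fell, and 8 did not pass the test, where 1.33% of all genes rose and 0.842% fell. The median of the 10 was 0.65, against -0.085 over all genes. Tgfb1, encoding a suppressive cytokine, was at 2829.3 and 2669, against 1004 and 1011.9 (log2 difference 1.42 ± 0.23, SE, adjusted p = 0.0134). The lymphotoxin gene Ltb was at 5894.9 and 6257.4 in anergic cells, against 12381.9 and 11571.3 in control cells (-0.98, adjusted p = 0.0493). Tnfsf11, encoding RANKL, was at 1.43 ± 0.40 (SE, adjusted p = 0.128). Without anergic array 1 or 2, the call was lost for Tgfb1 (1.38 and 1.46, adjusted p = 0.13 and 0.0696) and for Ltb (-0.93 and -1.02, adjusted p = 0.56 and 0.384).

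Of 21 transcription factor genes tested, Egr2 and Nfkb2 rose and 19 did not pass, against the same 1.33% higher and 0.842% lower of all genes, with a median of 0.075. Nfkb2, encoding the p100 precursor of the NF-kB subunit p52, was at 2354.7 and 2594.9 in anergic cells, against 823.9 and 935.1 in control cells (1.46 ± 0.24, SE, adjusted p = 0.0134). Egr2, a zinc finger factor gene, was at 3501.4 and 7914.3, against 955.9 and 657.6 (2.69 ± 0.37, SE, adjusted p = 0.00481). Irf1, an interferon-induced factor gene, was at -0.87 (adjusted p = 0.148). The call of Nfkb2 ended when anergic array 1 (1.53, adjusted p = 0.0707) or 2 (1.39, adjusted p = 0.0966) was left out.

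Genes downstream of chemokine receptors, carriers of chemokines and mRNA decay factors were mostly not past the threshold. Of 18 genes of receptor signalling and desensitisation, Rgs16 rose and 17 did not pass, where 1.33% of all genes rose and 0.842% fell. Rgs16, whose product shortens G protein signals, was at 2536.8 and 2615.4 in anergic cells, against 926.2 and 679.6 in control cells (log2 difference 1.66 ± 0.26, SE, adjusted p = 0.00924). Its relative Rgs10 was at -1.62 (adjusted p = 0.125) and the G protein subunit gene Gng2 at 0.27 (adjusted p = 0.812). Without anergic array 1 the call of Rgs16 was lost (1.68, adjusted p = 0.0514).

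Of 11 genes for carriers and processing of chemokines, the heparan sulfate proteoglycan gene Gpc1 fell and 10 did not pass, where 0.842% of all genes fell. Gpc1 was at 323.4 and 250.3 in anergic cells, against 2091.8 and 1547 in control cells (-2.54 ± 0.29, SE, adjusted p = 0.00186). The carboxypeptidase gene Cpd was at -0.97 (adjusted p = 0.282) and the hyaluronan receptor gene Cd44 at -0.34 (adjusted p = 0.739). Of 9 factors that bind or degrade AU-rich mRNA, listed here as decay factors, Zfp36l1 fell and 8 did not pass, against the same 0.842%. Such mRNA includes many cytokine transcripts. Zfp36l1 was at 1408.1 and 871.1, against 2942.8 and 3676.5 (-1.54 ± 0.29, SE, adjusted p = 0.0231). Zfp36, encoding tristetraprolin, was at 1.06 (adjusted p = 0.188) and Tial1 at -0.59 (adjusted p = 0.328). The call of Zfp36l1 was lost without anergic array 2 (-1.21, adjusted p = 0.175). Of the 8 genes called in these lists, median centring ended the calls of Cxcr3, Tgfb1, Ltb, Nfkb2, Rgs16 and Zfp36l1. A fit with no intensity trend ended those and that of Egr2, while Gpc1 passed under every alternative. The unadjusted limma p was under 0.05 for 7 of 21 transcription factors, 5 of 10 effector cytokines and 3 of 9 decay factors. It was also under 0.05 for 2 of 18 signalling genes and 2 of 11 carriers, against 709 of all 5583 genes tested.

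**Figure D4:**
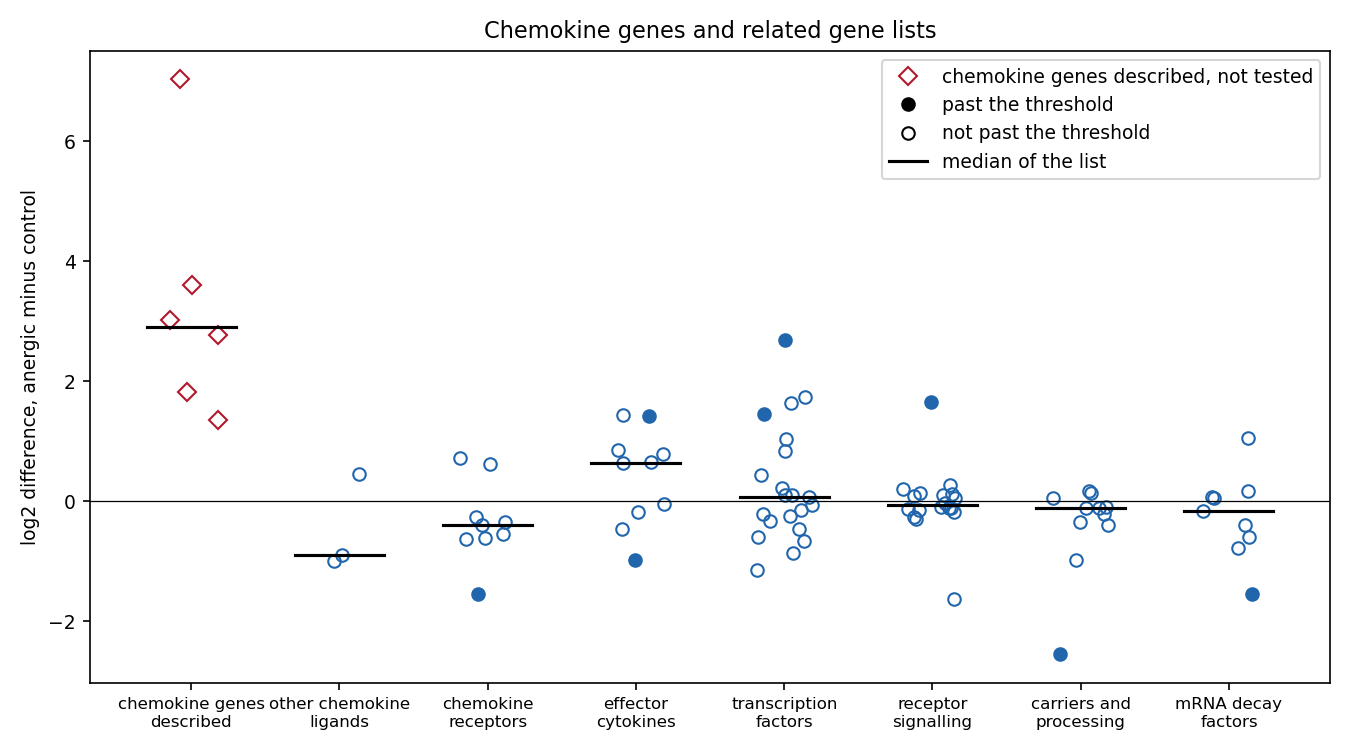
Log2 difference (anergic minus control) of the 6 chemokine genes in red and of each related list in blue, 1 point per gene tested, filled where past the threshold, with the median as a line. The chemokine genes, open diamonds, were picked from this contrast and are shown with no test. They have a median of 2.90, and the lists have medians from -0.89 for other chemokine ligands to 0.65 for effector cytokines.

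The markers of the labelled cell type were compared between the groups, which does not test the identity of the cells. Of 11 T cell and Th1 markers tested, 0 rose and 1 fell (Cxcr3), where 1.33% of all genes rose and 0.842% fell. The unadjusted limma p was under 0.05 for 4 of the 11, against 709 of all 5583 genes tested. The 14 probe sets of the whole list summed to 45612 to 47073 on the anergic and 44513 to 55492 on the control arrays. Thy1, Cd3g and Cd3e made up 45.2% to 52.9% of this sum in anergic and 53.7% to 63.8% in control cells. Because macrophages also make Ccl3, Ccl4 and Ccl9, the markers of macrophages and dendritic cells were read beside them. Of 17 such genes on the array, 9 were tested, Cd68 rose and 8 did not pass, where 1.33% of all genes rose. Cd68, which encodes a lysosomal membrane protein, was at 497.6 and 531.5 in anergic cells, against 71 and 91.3 in control cells (2.31 ± 0.36, SE, adjusted p = 0.0103). On the control arrays alone its mean log2 value was below the filter cut, so it passed through the anergic arrays where it is high. Its call was lost without anergic array 1 (2.35, adjusted p = 0.0609) or 2 (2.26, adjusted p = 0.063). Of all 5583 genes tested, 17.3% had both anergic arrays above both control arrays and 24% had both below. Those shares take 1 probe set per gene, past the filter. The marker list also includes further probe sets of a gene and some below the filter, so the sets are unlike. Over all 25 probe sets of the list, both anergic arrays were above in 5, below in 6 and overlapped in 14, and none was at 0. Those above were Cd68, 1 of 2 probe sets of Csf1r (55.8 and 125.7, against 21.1 and 25.9), both of Adgre1, encoding F4/80 (36.4 and 36.9, against 24 and 20.2, and 21.1 and 13.3, against 2.9 and 7.3), and 1 of 2 of Mpeg1 (14.3 and 15.9, against 2 and 2.4). Except for that of Cd68, these probe sets did not pass the filter. The other probe set of Mpeg1, at 93.8 and 155.8, against 213.6 and 320, was among those below, as were 1 of Lyz2 (11.7 and 11.4, against 129.1 and 73.3), C1qa, H2-Ab1 and the dimmer one of Cd68. H2-Aa, a class II gene of antigen-presenting cells, was at 12.2 and 19.2 on the anergic arrays, against 178.3 and 140.4 on the control arrays. The summed intensity of the list was 4847 to 6375 on the anergic arrays, and 5383 to 5444 on the control arrays. Cd74, Ctss and Cd14 made up 64.9% to 71.5% of it in anergic and 65.6% to 75.2% in control cells, so it says little of the dimmer markers. Of 3 tested markers of NK cells and other T cell subsets, 0 rose and 0 fell, against 1.33% and 0.842% of all genes. Klrk1 was at 894.7 and 1162 in anergic cells, against 190.7 and 1019.7 in control cells (limma adjusted p = 0.488). At its other probe set it was at 926.2 and 1219, against 226.5 and 794.8. Klrd1 was at 5139 and 4722.9, against 4303.9 and 5510.9, and Gata3 had a log2 difference of -0.57. The part of any such cells in the chemokine differences was not tested. In bulk RNA, fewer cells of a type and less RNA per cell cannot be told apart.

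**Figure D5:**
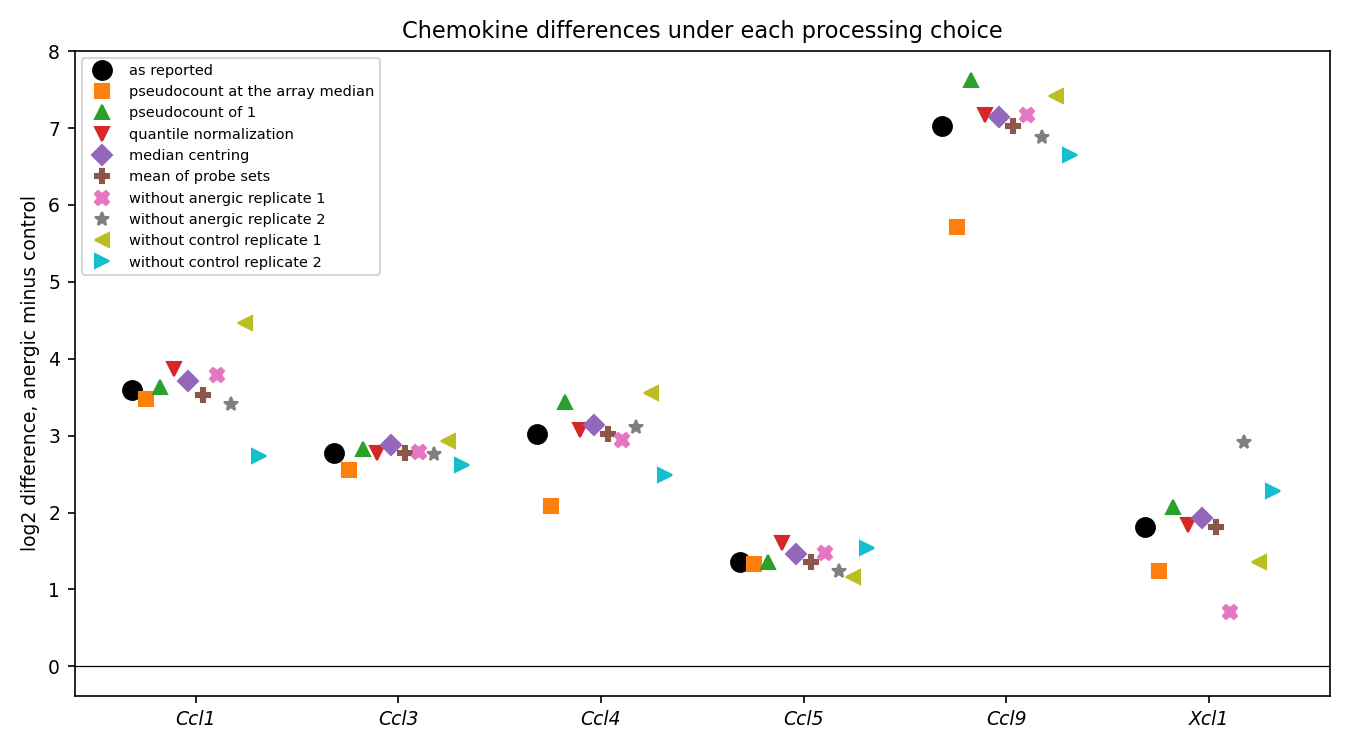
Log2 difference (anergic minus control) of the 6 chemokine genes under each processing choice, with the reported value in black. All plotted values are above 0, and the widest spread is that of Xcl1, from 0.71 without anergic array 1 to 2.92 without anergic array 2.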

How the data were processed

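The data are the deposited intensities of 12488 probe sets on 4 arrays, on a linear scale. The values show that the authors had scaled them before deposit, since the mean after trimming 2% at each end was 500.3 on every array. Trizol RNA and biotinylated cRNA were used, per the labels' protocols; the scanner software, background correction and probe summary are not named there. Detection calls were not used, and the number of arrays limits the precision.

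From these deposited intensities, log2(intensity + 29.15) was computed, where the pseudocount is the median of the arrays' 20th percentiles. Such differences understate the change of dim genes. The 66 control probe sets and those at or below the 40th percentile of mean log2 value were left out, which left 7453 probe sets. GEO's platform annotation gave 1 symbol to 10833 probe sets, several to 396 and none to 1193, and only the first kind were named. Each of 5583 genes was represented by its brightest probe set. The comparison used the limma package (version 3.58.1, R 4.3.3; lmFit, eBayes with trend, two-sided, Benjamini-Hochberg over all features, threshold 0.05) and was tested on simulated data beforehand. SEs of members come from the fit over probe sets, and those of other genes from the fit over genes. With 2 arrays in each group an exact permutation test could not pass the threshold, so calls rest on the spread shared across genes. Related genes were counted by lists, with no test of a list. Named were the members, every called gene of a list, up to 3 with the smallest p where fewer were called, receptors of members, chemokine neighbours and the 2 nearest profiles of each member. A further item that this rule would name is not reported here. Members and lists were chosen with earlier results of these data known. Promoters are from RefSeq (GRCm38.p6), and the annotation of that assembly gave gene order only. A comparison of protein sequences was planned and not made, since no protein table was used here. Alternatives were other pseudocounts, filters and normalizations, no trend, the replicate number as a block, means of probe sets and leaving out each array.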

Additional observations from a re-analysis of the deposited data

How the results depend on the processing

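All 6 chemokine genes kept a positive log2 difference under every alternative in which they passed the filter. Xcl1 did not pass the stricter filter. The 6 genes were picked from this contrast on the same arrays, so the kept sign is a description and not support. The pseudocount at the array median moved Ccl3 to 2.55, Ccl4 to 2.08 and Ccl9 to 5.71, a pseudocount of 1 moved Ccl9 to 7.62, and quantile normalization moved Ccl5 to 1.60, each by more than 1 SD between arrays of a group (pooled over both groups, log2 scale). Leaving out 1 array gave 2.74 to 4.46 for Ccl1, 2.62 to 2.93 for Ccl3, 2.49 to 3.56 for Ccl4, 1.16 to 1.54 for Ccl5, 6.64 to 7.42 for Ccl9 and 0.71 to 2.92 for Xcl1. No called gene of the lists changed direction, and Slfn2 lost its call only with no intensity trend. Leaving out 1 array turned the sign of 5 genes that had not passed, with ranges of -0.072 to 0.98 for Ccl22, -0.097 to 0.64 for Gng2, -1.005 to 0.475 for Slfn1, -0.33 to 0.36 for Slfn4 and -1.25 to 0.042 for Xcr1.

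Counts moved more, and the cause was not tested unless stated. Leaving out 1 array, which leaves a lone array assumed to vary like the other group, gave 30 to 168 genes called higher and 24 to 114 lower, and 26 to 208 probe sets higher and 17 to 136 lower. In the lists it gave 0 to 1 chemokine receptors higher and 0 to 1 lower, 0 to 1 decay factors higher and 0 to 2 lower, 0 to 2 effector cytokines higher and 0 to 1 lower, 0 to 1 genes of receptor signalling higher, and 1 to 5 transcription factors higher and 0 to 1 lower. Median centring gave 47 genes higher and 13 lower and 12 probe sets lower, with 0 effector cytokines in either direction, 0 signalling genes higher, 1 transcription factor higher, 0 receptors lower and 0 decay factors lower. No intensity trend gave 32 genes higher and 12 lower and 28 and 10 probe sets, with 0 transcription factors, effector cytokines and signalling genes higher, and 0 receptors, effector cytokines and decay factors lower. With no filter, where more features are tested, 30 genes were lower and 42 probe sets higher and 17 lower, with 0 receptors and 0 effector cytokines lower. Effector cytokines lower were 0 with the mean of probe sets and with a pseudocount of 1.

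Arrays with the same number in the 2 groups deviated together (r = 0.537 across probe sets, which are not independent), but with 2 numbers the design does not show that they are pairs. With the replicate number as a block, 348 genes were higher and 359 lower, and 389 and 372 probe sets. In the same block fit the lists had 1 receptor, 1 decay factor, 6 effector cytokines and 6 transcription factors higher, and 2 carriers, 2 decay factors, 1 other chemokine ligand, 1 signalling gene and 2 transcription factors lower.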
